A study of Drosophila melanogaster with 6 samples.

Results

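Chromosome 4 of Drosophila melanogaster, the smallest chromosome of the fly, held 1177 of the 95996 DamID peaks that were listed for the microproteins Simba1 and Simba2 in larval brains. Its peaks were taken by position alone, as every entry of the 4 deposited peak lists that lay on this chromosome. They numbered 321 (Dam-Simba2 batch 1), 393 (Dam-Simba2 batch 2), 275 (Dam-Simba1 batch 1) and 188 (Dam-Simba1 batch 2). In DamID a protein is fused to the bacterial adenine methylase Dam, GATC sequences near the places it visits become methylated, and methylated DNA is cut out, amplified and sequenced. The 6 samples were brains that expressed UAS-Dam-Simba2, UAS-Dam-Simba1 or UAS-Dam alone, with 1 sample of each in each of 2 batches. All carried grh-Gal4, which the submitters describe as a driver for neural stem cells (NSCs), together with tub-Gal80ts, a temperature-sensitive block on Gal4. Gal4 was held off at 18 °C for 44 h after a 4 h egg collection, and then released at 29 °C for 24 h, after which brains were taken. Whole brains were dissected, so the restriction to NSCs rests on the driver, and peak lists hold no expression markers with which to check it. The Simba fusions were expressed from transgenes, and binding of the untagged proteins was not measured.

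Chromosome 4 is unusual among fly autosomes. Most of its arm is coated by HP1a, the protein that binds methylated histone tails in heterochromatin, and by POF, which binds nascent RNA of its genes. Its genes are nonetheless transcribed in many tissues, and several of them act in the nervous system and in early development. The pericentromeric ends of the long arms also carry HP1a, so these ends are given as a further point of comparison.

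Each list had been called by the submitters against the Dam library of the same batch, so both Simba libraries of a batch share 1 control. After removal of duplicates the Dam-Simba2 libraries held 1069703 and 1267661 tags and the Dam-Simba1 libraries 1191497 and 1506081 tags (batches 1 and 2), and the Dam libraries held 868080 and 1321104 tags. The lists had no limit on q. All comparisons of chromosome 4 with the arms X, 2L, 2R, 3L and 3R (the long arms) were made within a library and tested over the 4 libraries by an exact two-sided sign-flip permutation. Its smallest p is 2 of 16 sign patterns, or 0.13 after rounding, so none of the differences below could pass 0.05. The spread in these tests is that between 4 libraries, and nothing in the labels says whether the batches were separate crosses. For lambda and for the sharing of peaks the 4 values are not independent, as given below.

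The first question was how densely chromosome 4 was marked. In the Dam-Simba2 libraries it held 239 (batch 1) and 292 (batch 2) peaks per Mb, against 162 and 249.6 on the long arms. In the Dam-Simba1 libraries it held 204 (batch 1) and 140 (batch 2) peaks per Mb, against 125 and 149.5 on the long arms. Chromosome 4 was the densest of the 6 arms in 3 libraries and ranked 5 of 6 in Dam-Simba1 batch 2. The mean ratio was 1.27-fold (log2 0.35 ± 0.36, SD, n = 4; exact sign-flip permutation p = 0.25). Without Dam-Simba1 batch 2 the mean log2 ratio was 0.50, and without Dam-Simba1 batch 1 it was 0.23.

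Peaks covered 11.9% and 15.0% of chromosome 4 in Dam-Simba2 batches 1 and 2, against 7.84% and 12.4% of the long arms. They covered 10.3% and 5.82% in Dam-Simba1 batches 1 and 2, against 6.12% and 6.59% of the long arms. The mean ratio was 1.29-fold (exact sign-flip permutation p = 0.25), and 3 of 4 libraries were above 1. The log2 ratio averaged 0.36 over the 4 libraries, 0.54 without Dam-Simba1 batch 2 and 0.23 without Dam-Simba1 batch 1. The median peak was 443 and 433 bp long on chromosome 4 in Dam-Simba2, against 420 bp on the long arms in both batches. In Dam-Simba1 it was 426 and 364 bp, against 427 and 382 bp. The mean log2 ratio of lengths was 0.01 ± 0.06 (SD, n = 4; exact permutation p = 0.75).

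**Figure D1:**
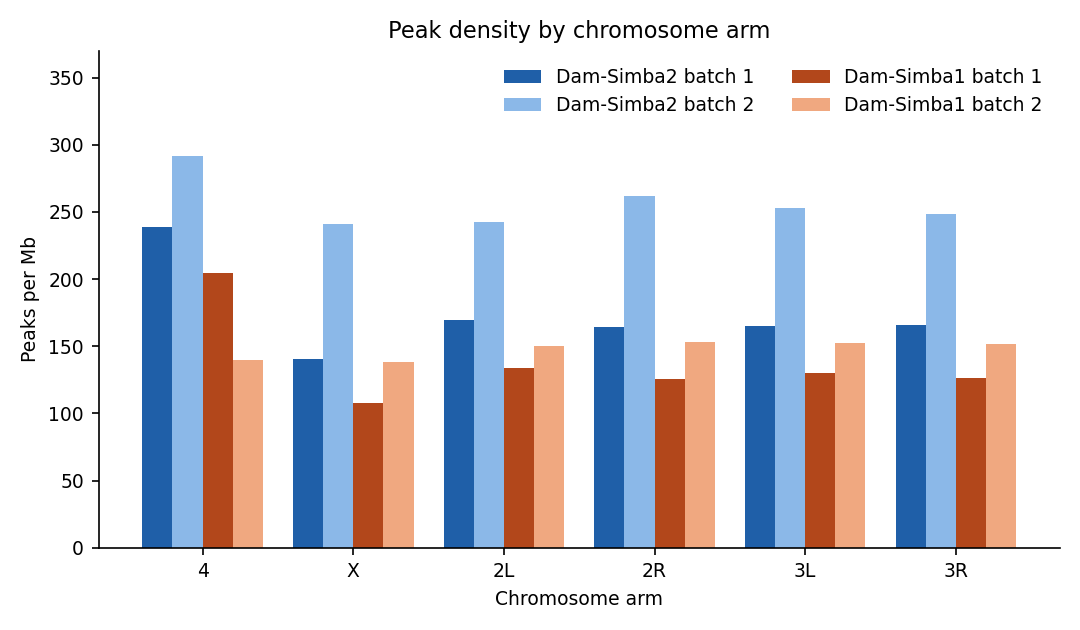
Peaks per Mb (vertical axis) on each chromosome arm (horizontal axis) for the 4 fusion libraries, 1 bar per library. Chromosome 4 stands highest in Dam-Simba2 batch 1 (239), Dam-Simba2 batch 2 (292) and Dam-Simba1 batch 1 (204), and at 140 in Dam-Simba1 batch 2.

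More of the chromosome 4 peaks had a q of 0.05 or lower than of the peaks elsewhere. The shares were 62.9% and 72.0% on chromosome 4 in Dam-Simba2 batches 1 and 2, against 53.2% and 57.1% on the long arms. They were 71.3% and 53.2% in Dam-Simba1 batches 1 and 2, against 60.4% and 41.9%. Over all 6 arms the shares were 53.4, 57.3, 60.5 and 42% in the same order of libraries. The difference was 11.7 ± 2.22 percentage points (SD, n = 4), with chromosome 4 higher in 4 of 4 libraries (exact sign-flip permutation p = 0.13, the smallest possible). Restricting both sides to peaks of q 0.05 or lower gave density ratios of 1.75 and 1.47 in Dam-Simba2 and 1.93 and 1.19 in Dam-Simba1.

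At the peaks, coverage was higher on chromosome 4 than on the long arms in both the fusion and the Dam libraries. Median pileup, the coverage by extended reads at the summit, was 11.4 and 16.0 on chromosome 4 in Dam-Simba2 batches 1 and 2, against 8.12 and 10 on the long arms. In Dam-Simba1 it was 11.7 and 14.0, against 8.74 and 8.77. The mean ratio of pileup was 1.48-fold, above 1 in 4 of 4 libraries (exact sign-flip permutation p = 0.13).

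Lambda, the local background that the peak caller took from the Dam library, moved in the same direction. Its median was 3.00 and 5.11 at chromosome 4 peaks in Dam-Simba2, against 2.00 and 3.16 at peaks of the long arms. At Dam-Simba1 peaks it was 3.00 and 4.62, against 2.00 and 2.60. The mean ratio of lambda was 1.60-fold, above 1 in 4 of 4 libraries (exact sign-flip permutation p = 0.13). Both fusion libraries of a batch take lambda from the same Dam library, so the 4 values rest on 2 Dam libraries. That p treats them as 4 independent values, which they are not. Lambda is known here only at listed peaks, so the Dam signal between peaks was not examined.

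Fold enrichment, which is pileup plus 1 over lambda plus 1, did not show such an excess. Its median was 2.81 and 2.46 on chromosome 4 in Dam-Simba2, against 2.79 and 2.45 on the long arms, and 2.96 and 2.45 in Dam-Simba1, against 2.95 and 2.67. The mean rank of chromosome 4 peaks by fold enrichment within their list was -1.16 ± 5.47 percentiles from that of the long arms (SD, n = 4; exact permutation p = 1). Dam-Simba1 batch 2 alone lay below, by -9.32 percentiles, and the mean without it was 1.56. Among peaks of q 0.05 or lower chromosome 4 ranked lower in all 4 libraries, by -3.77 and -6.09 percentiles in Dam-Simba2 and -3.21 and -15.9 in Dam-Simba1 (mean -7.24, exact permutation p = 0.13). At q of 0.001 or lower the mean was -4.77, again with all 4 libraries lower. At a given fold enrichment a Poisson test gives a lower q where pileup and lambda are both larger, so the shares of low q on chromosome 4 stand beside these higher levels. For the same reason a q limit keeps peaks of lower fold enrichment where lambda is higher. The lower ranks of chromosome 4 under the q limits are favoured by the filter itself, so no conclusion is drawn from them. The part of coverage in the density and the q of chromosome 4 was not tested beyond the alternatives given here.

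**Figure D2:**
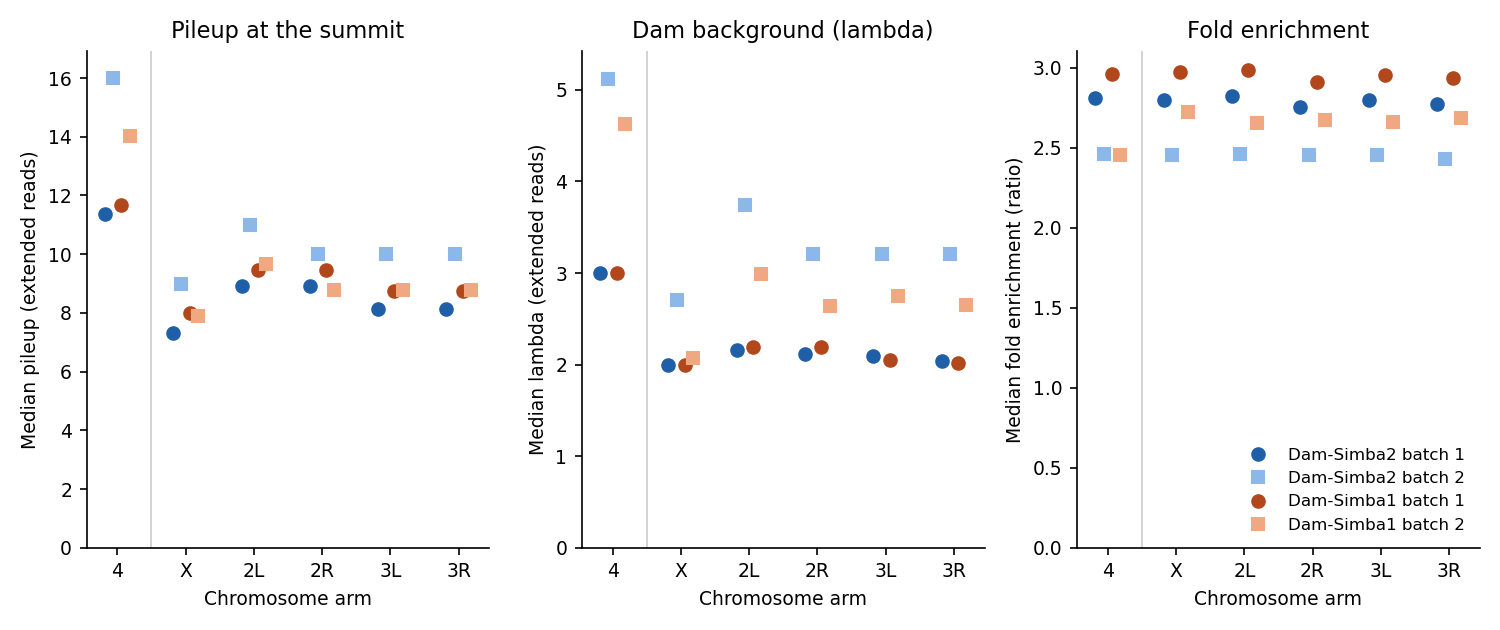
Median pileup, median lambda and median fold enrichment of peaks (vertical axes, 1 panel each) on each arm (horizontal axes), 1 point per library. Chromosome 4 stands above the long arms in pileup (11.4 to 16.0) and lambda (3.00 to 5.11). In fold enrichment (2.45 to 2.96) it is among or level with them, except in Dam-Simba1 batch 2, where it is the lowest of the 6 arms.

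Because the effective genome size used in peak calling was far larger than the fly genome, the lower limit on lambda was very low. Only 13.4% and 9.92% of chromosome 4 peaks in Dam-Simba2 and 15.3% and 7.45% in Dam-Simba1 had a lambda below the average of the arms. On the long arms these shares were 40.0% and 38.3% in Dam-Simba2 and 39.6% and 50.9% in Dam-Simba1. In an alternative chosen after the data were seen, lambda was raised to that average and peaks were kept only where the new p still reached the p at which that list met a q of 0.05. The density of chromosome 4 was then 2.01 and 1.70 times that of the long arms in Dam-Simba2 and 2.30 and 1.64 times in Dam-Simba1. Raising lambda weakens only peaks below that average, which were a larger share on the long arms. The rule thus favoured a rise of this ratio, and the rise is no separate evidence of an excess. Both choices were changed together here, and the q limit alone had already given the ratios of 1.19 to 1.93 above, so the mean ratio was 1.89 with both, 1.56 with the q limit alone and 1.27 with neither.

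The 3 Mb at the centromere side of each long arm differed from chromosome 4 in signal. Median lambda there was 1.12 and 1.92 in Dam-Simba2 and 1.11 and 2.00 in Dam-Simba1. Chromosome 4 was higher by 2.59-fold on average, in 4 of 4 libraries (exact sign-flip permutation p = 0.13). These lambda values again rest on 2 Dam libraries and are not 4 independent ones. The share of peaks with q of 0.05 or lower was 45.1% and 45.3% in Dam-Simba2 and 54.4% and 42.7% in Dam-Simba1 at these ends, and chromosome 4 was 18.0 percentage points above it (p = 0.13 by the same permutation). Peak density was less uniform: 146 and 258 peaks per Mb in Dam-Simba2, and 113 and 178 in Dam-Simba1. Chromosome 4 was denser than these ends in 3 libraries and sparser in Dam-Simba1 batch 2 (mean ratio 1.27, exact sign-flip permutation p = 0.375). This comparison was also chosen after the data were seen.

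Peaks were spread along the whole of chromosome 4. Over 14 bins of 100 kb (the last one 45779 bp), Dam-Simba2 had 7 to 33 peaks per bin in batch 1 (median 23.5) and 17 to 43 in batch 2 (median 27.5). Dam-Simba1 had 8 to 32 in batch 1 (median 19.5) and 6 to 25 in batch 2 (median 12.5). No full bin was empty in any library.

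The bin with the most peaks over the 4 lists together ran from 400001 to 500000 and held 33 and 43 peaks in Dam-Simba2 and 32 and 12 in Dam-Simba1. It contains lgs, which encodes the Wg pathway cofactor Legless, CaMKI, a calcium/calmodulin-dependent kinase gene, Taf3, which encodes a TFIID subunit, and Asator, a kinase gene of the tau-tubulin kinase family. Gene spans cover 49.0% of it, the lowest share of any full bin. Outside genes lay 12 of its 33 and 19 of its 43 Dam-Simba2 peaks, and 9 of its 32 and 4 of its 12 Dam-Simba1 peaks. Dam-Simba1 batch 2 did not follow this order. Its highest bin, with 25 peaks, was 800001 to 900000, where Sox102F and fd102C, both transcription factor genes, lie with Gyf and unc-13.

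The full bin with the fewest peaks over the 4 lists together was 1200001 to 1300000, with 13 and 17 peaks in Dam-Simba2 and 10 and 12 in Dam-Simba1. In Dam-Simba1 batch 2 it was not the lowest, since 3 other full bins held 7, 10 and 11 peaks. It holds Mitf, a bHLH transcription factor gene, Dyrk3, a kinase gene, and Cadps, which acts in dense-core vesicle release. The longest stretch without a peak in any list was 20047 bp (1198714 to 1218760), in Mitf, and the next, of 17698 bp (1231005 to 1248702), was in Cadps. Beyond the end of the last gene, at 1271759, there were still 13 and 29 peaks in Dam-Simba2 and 13 and 13 in Dam-Simba1. Some of the strongest peaks lay in this gene-free end. In Dam-Simba1 batch 2 the chromosome 4 peak with the lowest q was at 1295079 to 1295365, with a fold enrichment of 2.92.

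**Figure D3:**
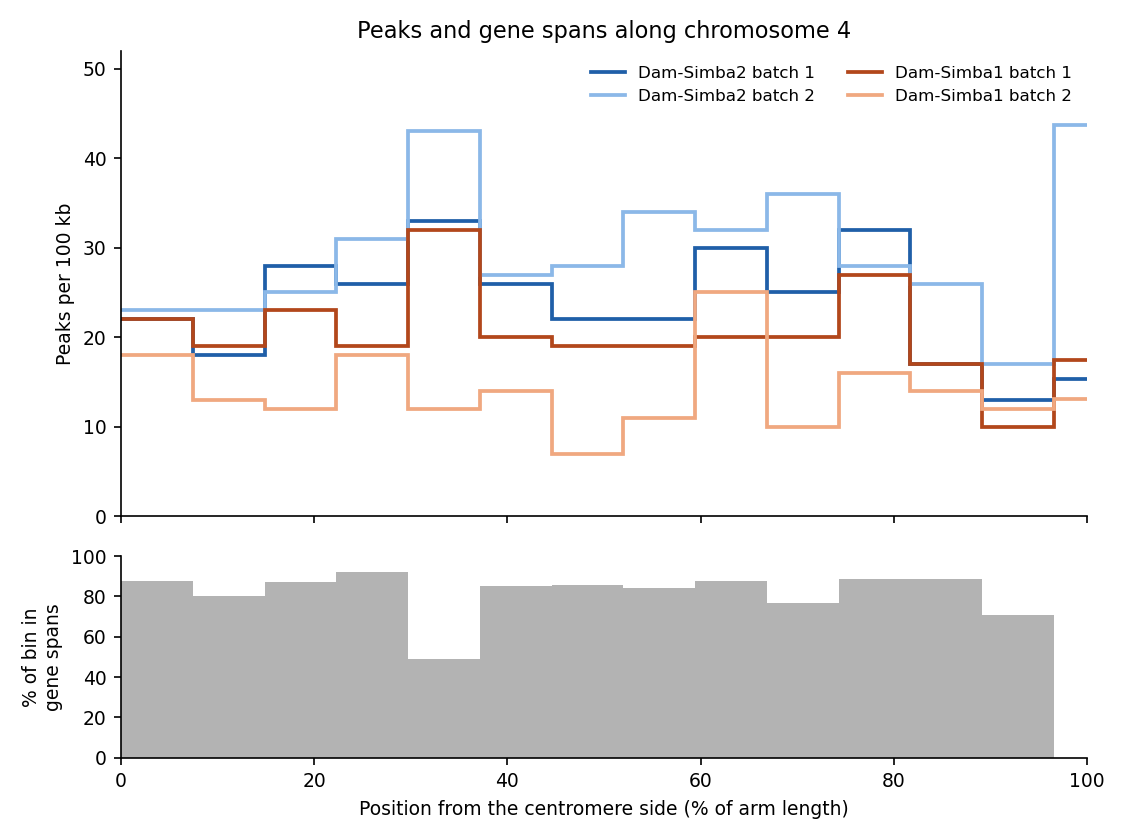
Peaks per 100 kb (upper panel, 1 line per library) and percent of each bin in gene spans (lower panel) against position from the centromere side of chromosome 4, in percent of its length. Among full bins the counts are highest around lgs, Taf3 and Asator in 3 libraries (33, 43 and 32). They are lowest among full bins near Mitf and Cadps in the same 3 (13, 17 and 10), while Dam-Simba1 batch 2 is lowest from 600001 to 700000 (7). The short last bin, scaled to 100 kb, is the highest bin of Dam-Simba2 batch 2, from 20 peaks in 45779 bp.

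Genes on chromosome 4 are fewer per Mb and longer than elsewhere, which bears on every count by gene. The chromosome has 114 annotated genes (80 protein coding), 84.7 per Mb against 133 on the long arms, and the median gene spans 6739.5 bp against 1700 bp. Peak summits lay in gene spans for 82.9% and 76.6% of chromosome 4 peaks in Dam-Simba2, against 67.2% and 69.1% on the long arms. For Dam-Simba1 these shares were 80.0% and 82.4%, against 66.1% and 63.9%. The difference was 13.9 ± 4.68 percentage points (SD, n = 4; 4 of 4 libraries; exact permutation p = 0.13). It stands beside gene spans that cover 79.1% of chromosome 4 and 69.4% of the long arms.

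Summits within 1 kb of a gene end, on the other hand, were a slightly smaller share on chromosome 4. They made up 26.8% and 23.2% of peaks in Dam-Simba2, against 30.5% and 33.0%, and 30.9% and 23.9% in Dam-Simba1, against 31.3% and 24.9%. The difference was -3.72 ± 4.32 percentage points (SD, n = 4; lower in 4 of 4 libraries; exact permutation p = 0.13), and was 4.37 when the distance was widened to 5000 bp. The windows of 1 kb cover 24.1% of chromosome 4 and 28.5% of the long arms.

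Most genes of chromosome 4 had a peak in their span or within 1 kb of it. Among the 114 genes, 95 and 100 had one in Dam-Simba2 batches 1 and 2, and 96 and 79 in Dam-Simba1 batches 1 and 2. Over all 17684 genes of the 6 arms, the shares were 58.9%, 77.4%, 51.1% and 46.6% in the same order. The share on chromosome 4 was 22.8 ± 9.43 percentage points above that of the long arms (SD, n = 4; 4 of 4 libraries; exact permutation p = 0.13).

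A peak in all 4 libraries was found at 67 genes of chromosome 4, which is 58.8% beside 24.1% of all genes, and one of q 0.05 or lower in all 4 at 49 genes (43.0% beside 11.5%). Longer genes collect more peaks, so the counts were also split by span. Of genes up to 2000 bp long, 5 of 28 (17.9%) had a peak in all 4 libraries on chromosome 4, against 11.4% on the long arms. Of genes of 2000 to 10000 bp it was 26 of 45 (57.8%), against 25.3%, and of genes of 10000 to 50000 bp it was 35 of 40 (87.5%), against 78.7%. The gap between chromosome 4 and the long arms was thus widest at the middle lengths, though no test was made of it.

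No peak in any library was found at 5 genes of chromosome 4 (4.39%, beside 10.1% of all genes). These were mir-9385, a microRNA gene, the RNA genes asRNA:CR45198, lncRNA:CR46488 and asRNA:CR46065, and yellow-h, the only protein-coding gene among them. Genes with peaks of 1 protein in both batches and none of the other were 4 for Dam-Simba2 (3.51%, against 5.79% on the long arms) and 1 for Dam-Simba1 (0.877%, against 0.592%). CG31997, Arf4, Mpv17 and asRNA:CR44031 had a peak in both Dam-Simba2 libraries and neither Dam-Simba1 library, and CR32011 had the reverse. Mpv17 and asRNA:CR44031 rest on the same peaks, 1029477 to 1029986 in Dam-Simba2 batch 1 and 1028511 to 1028789 in batch 2. The −log10 q of these peaks was only 0.87 and 0.19, with fold enrichments of 2.48 and 1.55. The best Dam-Simba2 peaks of CG31997 and Arf4 had a −log10 q of 3.14 to 3.66. These 10 genes were named after their values were seen.

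The genes described next were chosen by the rank of their best peak by q within each whole list, given as a percentile and averaged over the 4 libraries. Long genes have more chances at a high best peak. Fold enrichments are the authors' and rank peaks within a list, and are not compared in size between libraries. The median over the 114 genes was 68.7, that over the genes of all 6 arms 34.8, and that over 54 listed genes of chromosome 4 80.5. The 114 include RNA genes and pseudogenes, while the 54 are all protein coding. Among the 80 protein-coding genes of chromosome 4, 70.0% had a peak in all 4 libraries and 52.5% had one of q 0.05 or lower in all 4.

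A gene of the synapse held the top of the ranking. unc-13, which encodes a presynaptic protein that readies vesicles for release (867824 to 912331), averaged a percentile of 98.7 ± 0.863 (SD, n = 4). It had 15 and 16 peaks in Dam-Simba2 and 11 and 8 in Dam-Simba1, and its best peaks had fold enrichments of 3.99 and 3.89 in Dam-Simba2 and 6.67 and 4.24 in Dam-Simba1. In Dam-Simba2 the best peaks lay at 905482 to 906104 and 905564 to 906113, and in Dam-Simba1 elsewhere in the gene, at 892605 to 893927 and 885852 to 886374. PMCA, the plasma membrane calcium pump gene, averaged 96.4, with fold enrichments of 5.23 and 3.31 in Dam-Simba2 and 5.72 and 4.70 in Dam-Simba1. Syt7, a synaptotagmin gene, averaged 93.8, with 6.31 and 2.70 in Dam-Simba2 and 7.13 and 3.88 in Dam-Simba1. Of the 8 genes listed for the synapse, 7 had a peak in all 4 libraries and 6 had one of q 0.05 or lower in all 4. These stand beside 58.8% and 43.0% of all chromosome 4 genes and 24.1% and 11.5% of the genes of all arms. Most of the 8, such as unc-13, PMCA and Syt7, span 10000 to 50000 bp. In that class 87.5% of chromosome 4 genes had a peak in all 4 libraries, so 7 of 8 is about the share of genes of that length.

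Developmental transcription factors were the group with the highest median percentile, 91.2. All 12 had a peak in Dam-Simba2 batch 1, Dam-Simba2 batch 2 and Dam-Simba1 batch 1, and 11 had one in Dam-Simba1 batch 2. Over all chromosome 4 genes these shares were 83.3%, 87.7%, 84.2% and 69.3% in the same order of libraries. Among chromosome 4 genes of 10000 to 50000 bp, such as dati and ey, they were 97.5%, 100%, 100% and 90.0%. A peak of q 0.05 or lower in all 4 libraries was found at 10 of the 12, beside 43.0% of all chromosome 4 genes. dati, a zinc finger factor gene (375640 to 395605), averaged 96.7, with best fold enrichments of 4.09 and 5.86 in Dam-Simba2 and 4.13 and 3.19 in Dam-Simba1. The antisense RNA gene asRNA:CR44027 at its end averaged 94.1, and rests in part on the same peaks. ey, the Pax6 gene eyeless, averaged 94.5, with 5.63 and 4.53 in Dam-Simba2 and 5.65 and 2.80 in Dam-Simba1. Because dati and ey were named by their mean percentile, their place above the median of their group follows from that choice. fd102C, a forkhead-domain gene, averaged 93.6, with 3.77 and 5.59 in Dam-Simba2 and 4.84 and 4.57 in Dam-Simba1. zfh2, a zinc finger homeodomain gene, averaged 92.5, with 2.63 and 3.63 in Dam-Simba2 and 4.39 and 3.75 in Dam-Simba1.

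The genes pan and lgs encode nuclear factors of the Wg pathway, and in Dam-Simba1 batch 2 only pan had a peak in its span or within 1 kb. pan, which encodes the TCF factor that binds Wg target genes (69326 to 114270), had 12 and 18 peaks in Dam-Simba2 and 14 and 9 in Dam-Simba1. Its best fold enrichments were 6.84 and 3.01 in Dam-Simba2 and 3.66 and 2.76 in Dam-Simba1, with a mean percentile of 90.2 ± 14.6 (SD, n = 4). lgs (436957 to 443911) had 5 and 6 peaks in Dam-Simba2, and 3 in batch 1 and none in batch 2 of Dam-Simba1. Among chromosome 4 genes of 2000 to 10000 bp, the length class of lgs, 71.1% had a peak in Dam-Simba1 batch 2. With the distance widened to 5000 bp, lgs had a peak in all 4 libraries. In Dam-Simba2 batch 2, the peak at the edge of lgs (436839 to 437661) had the lowest q of chromosome 4, with a fold enrichment of 4.09 and a −log10 q of 16.1.

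Among chromatin and general transcription factors all 4 listed genes had a peak in all 4 libraries, beside 58.8% of all chromosome 4 genes and 70.0% of its protein-coding genes. pho, which encodes the DNA-binding Polycomb group protein Pleiohomeotic, had best fold enrichments of 7.34 and 3.44 in Dam-Simba2 and 6.54 and 2.52 in Dam-Simba1. Taf3 averaged 90.4 and had its best peaks at 1 shared place (459849 to 460127) in the 4 libraries. Hcf, the host cell factor gene, averaged 79.9. Asator was the highest of the kinase and adaptor genes, at 96.9, with 5.06 and 4.32 in Dam-Simba2 and 4.72 and 2.48 in Dam-Simba1. In that group 4 of 7 genes had a peak in all 4 libraries, near the share of all chromosome 4 genes, with a median percentile of 57.9, below that of all chromosome 4 genes. Crk, an adaptor gene, had 2 and 3 peaks in Dam-Simba2, and 1 in batch 1 and none in batch 2 of Dam-Simba1, and the kinesin gene Kif3C averaged 63.3.

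The 3 ligand genes of the TGF-beta family on this chromosome all had peaks in both Dam-Simba2 libraries, beside 79.8% of all chromosome 4 genes and 88.75% of its protein-coding genes. myo, which encodes myoglianin, averaged 86.4, and its best peaks shared the bases 695546 to 695892 in the 4 libraries. Actbeta, an activin gene, averaged 81.4, and mav, the gene of the ligand Maverick, had 2 and 2 peaks in Dam-Simba2, and 2 in batch 1 and none in batch 2 of Dam-Simba1. For axon guidance and adhesion, 4 of 6 genes had a peak in all 4 libraries, close to the 58.8% of all chromosome 4 genes. Cals, a calsyntenin gene, averaged 84.5, and PlexB, a semaphorin receptor gene, 72.2. Eph, the ephrin receptor gene, had its best fold enrichment of 7.24 in Dam-Simba1 batch 1, where that peak (610369 to 611152) had the lowest q of chromosome 4, and no peak in Dam-Simba1 batch 2. The genes lgs, mav, Eph and Crk each lacked a peak in Dam-Simba1 batch 2, the library with the fewest chromosome 4 peaks. In that library 79 of the 114 chromosome 4 genes, 60 of the 80 protein-coding ones and 42 of the 54 listed genes had one.

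Genes of muscle, lipid transport and housekeeping had peaks too. bt, which encodes the muscle protein projectin and is the longest gene of the chromosome (724400 to 776474), had 12 and 22 peaks in Dam-Simba2 and 7 and 5 in Dam-Simba1, and averaged 96.3. apolpp, which encodes the lipid carrier apolipophorin, averaged 85.4. Of the 10 genes listed for housekeeping and translation, 6 had a peak in all 4 libraries, which is about the share of all chromosome 4 genes (67 of 114). Gyf averaged 88.2, Pur-alpha, a gene for a nucleic-acid-binding protein, 87.5, and Tdg, a thymine DNA glycosylase gene, 84.6. Of all 54 listed genes 41 had a peak in all 4 libraries, beside 58.8% of all chromosome 4 genes and 70.0% of its protein-coding genes. None of the 54 lacked a peak in every library, beside 4.39% of all chromosome 4 genes and 1.25% of its protein-coding genes. All 54 are protein coding, so the protein-coding shares are the closer comparison.

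**Figure D4:**
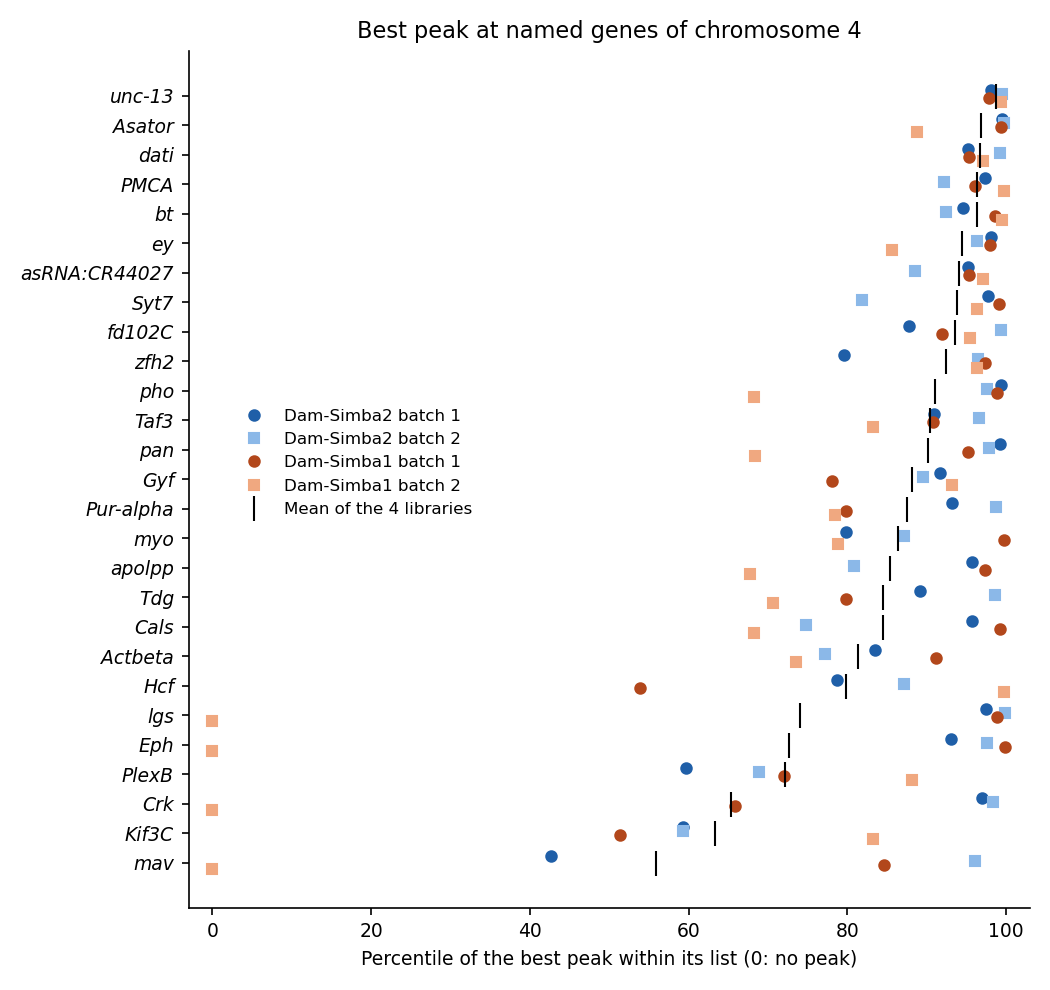
Percentile of the best peak by q within its list (horizontal axis, 0 where there is no peak) for the 27 genes described (vertical axis), 1 point per library, with the mean of the 4 as a bar. unc-13 stands near the top in all 4 libraries (mean 98.7). lgs, mav, Eph and Crk stand at 0 in Dam-Simba1 batch 2, where 79 of all 114 chromosome 4 genes have a peak.

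The next question was whether the same places were marked in different libraries. The share of chromosome 4 peaks of 1 list that overlapped a peak of another was above that of the long arms in 11 of 12 ordered pairs. Between batches of Dam-Simba2, 58.9% of batch 1 peaks overlapped batch 2 on chromosome 4, against 51.8% on the long arms, and 47.8% of batch 2 peaks overlapped batch 1, against 33.6%. Between batches of Dam-Simba1 the shares were 27.3% of batch 1 peaks, against 26.9%, and 39.9% of batch 2 peaks, against 22.5%. For the Dam-Simba1 batch 1 list, the share on chromosome 4 was within its exact 95% interval (22.1 to 32.9%) of that on the long arms.

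Between proteins of batch 1 the sharing was the highest. In that batch 64.2% of Dam-Simba2 peaks overlapped Dam-Simba1, against 50.7% on the long arms, and 73.5% of Dam-Simba1 peaks overlapped Dam-Simba2, against 65.4%. In batch 2 it was 24.9% of Dam-Simba2 peaks, against 26.3%, and 52.1% of Dam-Simba1 peaks, against 43.9%. Pairs within a batch share the Dam control, and their controls are separate only across batches. Over the 4 libraries the mean share was 9.11 ± 4.08 percentage points higher on chromosome 4 (SD, n = 4; 4 of 4; exact permutation p = 0.13). Each pair of lists enters the values of both its libraries, so these 4 values are not independent. Their SD and p do not measure a spread between independent replicates. Every list except that of Dam-Simba1 batch 2 also covered more of chromosome 4 than of the long arms, and the part of this coverage in the sharing was not tested.

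**Figure D5:**
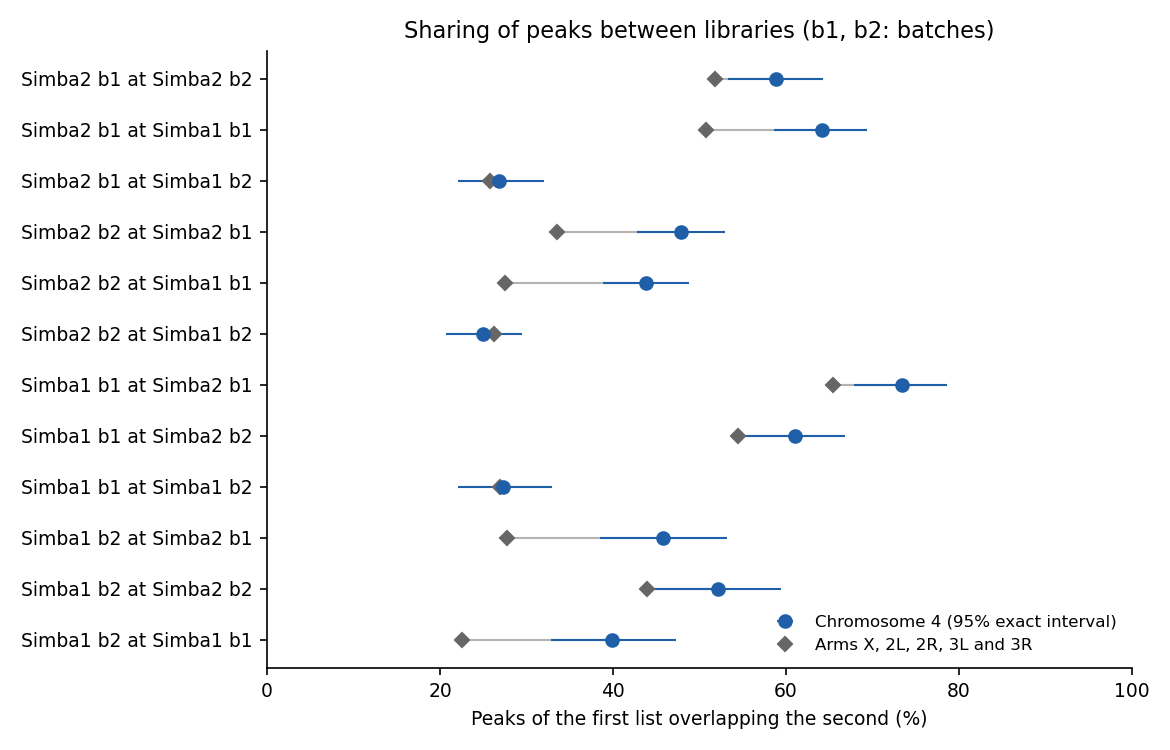
Percent of peaks of the first list that overlap a peak of the second by 1 bp or more (horizontal axis), for the 12 ordered pairs (vertical axis), on chromosome 4 (circles, with exact 95% Clopper-Pearson intervals) and on the long arms (diamonds). Chromosome 4 is higher in 11 pairs, and at 24.9% against 26.3% for Dam-Simba2 batch 2 at Dam-Simba1 batch 2.

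Peaks of the 4 lists merged into 616 regions on chromosome 4, of which 46.6% were in 1 list, against 58.4% on the long arms. In all 4 lists were 48 regions (7.79%, 95% exact interval 5.80 to 10.2, counting error only), beside 4.49% of the regions of all 6 arms. This came to 35.7 such regions per Mb, against 18.4 on the long arms. Without Dam-Simba1 batch 2, 136 regions were in the 3 remaining lists, which is a less strict rule by construction. Of the 48 regions, 19 had q of 0.05 or lower in each list, and the same share for the long arms is not given here. A gene span held 39 of the 48, which is near the 79.1% of chromosome 4 that gene spans cover.

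The region with the highest mean percentile was in bt (736410 to 736862), with fold enrichments of 4.26 and 3.50 in Dam-Simba2 and 5.44 and 4.28 in Dam-Simba1. The next (395883 to 397191) lay beyond the end of dati (395605) and overlapped only the edge of asRNA:CR44027, which ends at 395954. Its fold enrichments were 4.09 and 3.02 in Dam-Simba2 and 4.13 and 3.19 in Dam-Simba1. These were the 2 regions with q of 0.001 or lower in every list. The third was in CG1909 (582859 to 583687), with 5.98 and 4.33 in Dam-Simba2 and 4.80 and 3.01 in Dam-Simba1. Further high regions lay within 1 kb of Asator (489212 to 489898), in Taf3 (459738 to 460178), in dati (386959 to 389094), in toy, a second Pax6 gene (993425 to 993994), and in myo (695325 to 696013). In myo the coverage was high in both kinds of library: pileup was 54.4 and 64.0 in Dam-Simba2 and 57.6 and 48.2 in Dam-Simba1, with lambda of 28.0 and 31.7 in Dam-Simba2 and 14.0 and 26.0 in Dam-Simba1.

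Regions that were marked by 1 protein in both batches and not by the other were fewer than those in all 4 lists. There were 36 with Dam-Simba2 alone (5.84%, against 5.22% on the long arms) and 6 with Dam-Simba1 alone (0.974%, against 1.08%). Regions found in 1 batch with both proteins and not in the other batch numbered 51 in batch 1 (8.28%, against 5.83%) and 30 in batch 2 (4.87%, against 7.44%).

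The final comparison set Dam-Simba2 against Dam-Simba1. Dam-Simba2 had 1.17 times as many chromosome 4 peaks as Dam-Simba1 in batch 1, beside 1.29 times on the long arms, and 2.09 times in batch 2, beside 1.67. Relative to the long arms the log2 difference was -0.15 in batch 1 and 0.32 in batch 2, with a mean of 0.09 (exact two-sided permutation p = 1, with a smallest possible p of 0.33). Without Dam-Simba2 batch 1 the mean was -0.08, and without Dam-Simba1 batch 2 it was -0.31. Between batches, Dam-Simba2 had 1.22 times as many chromosome 4 peaks in batch 2 as in batch 1, beside 1.54 on the long arms. For Dam-Simba1 the ratio was 0.684 on chromosome 4, beside 1.20 on the long arms, so that batch 2 had fewer peaks than batch 1 on this chromosome and more on the long arms.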

How the data were processed

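DamID libraries (paired reads of 250 bp, per the labels' protocols) were made from 6 brain samples. Per the submitters' processing notes, bcl2fastq 2.19.0.316, FastQC, Bowtie2, ChIPseeker and the build dm6 were used. Peak calling was by MACS 3.0.0, 1 run per fusion library with the Dam library of that batch as control and no pooling, per the file headers, with a q limit of 1 and an effective genome size of 2910000000 bp. Pileup, the coverage signal that the authors deposited, is read at each summit, −log10 of p and of q were deposited from a Poisson test, and the deposited fold enrichment is the ratio of pileup plus 1 to lambda plus 1. Lambda was recovered from that ratio; the p computed from it was within 0.01 of the deposited −log10 p for 99.3 to 100% of peaks per library, and 100% on chromosome 4. These lists give no raw counts per peak, so depth is the number of tags in the headers.

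Arms end at the furthest base of any listed peak or gene (1345779 on chromosome 4). Gene spans came from a RefSeq table of dm6 without strand or exons, so promoters, introns and GATC sites were not analysed here, and no sequence is shown. Peaks were assigned to genes when they lay on the span or on the 1000 bp at either side of it, and placed by summit for shares in and near genes. Regions were made by merging peaks that share 1 bp or more. Tests were exact permutations over libraries (Python 3.11.15, numpy 2.4.6, pandas 2.3.3, scipy 1.17.1, matplotlib 3.10.9), and the scripts were tested on simulated data. Exact intervals are Clopper-Pearson (95%) and cover counting error only. The labels give the batch as a shared number, and both fusion libraries of a batch share its Dam control, so the batch pairs the samples: deviations from the protein mean correlated between Dam-Simba2 and Dam-Simba1 (Pearson r = 0.264 across 13390 bins of 10 kb, 0.284 across 135 on chromosome 4, bins not being independent replicates).

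The chromosome, the 9 gene lists (54 genes, 3 matched by synonym), the alternatives and the gene naming rule were chosen with earlier results of these data known. The rule took the 10 genes with the highest mean percentile among those with a peak in all 4 libraries, pan and lgs, up to 3 genes per list, every listed gene without a peak, and the 8 highest regions in all 4 lists. Alternatives were a q of 0.05 or 0.001, equal list lengths, other gene distances and overlaps, other arm lengths, leaving out the centromere side, leaving out each library and the batch as a block.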

Additional observations from a re-analysis of the deposited data

Results flagged for a closer look

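The median peak length on chromosome 4 relative to the long arms lay on opposite sides for the 2 proteins. Both Dam-Simba2 libraries had longer peaks on chromosome 4 (443 and 433 bp, against 420 bp in both batches on the long arms), and both Dam-Simba1 libraries had shorter ones (426 and 364 bp, against 427 and 382 bp). The mean log2 ratio was 0.097 higher in Dam-Simba2 than in Dam-Simba1. The difference between the proteins was not tested, and in Dam-Simba1 batch 1 the gap to the long arms was 1 bp.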

How the results depend on the processing

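Under the alternatives tried, the chromosome 4 excess in density, covered share, share of low q, pileup, lambda, genes with a peak, peaks in gene spans and sharing kept its direction. For density and covered share, raised lambda favoured that direction by construction. The log2 ratio of peak length turned to -0.039 for peaks of q 0.05 or below, -0.044 for those of q 0.001 or below, -0.011 with lists cut to 1 length and -0.050 with lambda raised to the arm average together with the limit of q 0.05. The share at gene ends turned to 4.37 percentage points at 5000 bp. The fold enrichment rank, -1.16 percentiles, was -7.24 and -4.77 at these q limits and -6.14 with raised lambda and q of 0.05 together. Leaving out each library in turn, log2 density ranged over 0.23 to 0.50 and log2 covered share over 0.23 to 0.54, peak length over -0.0097 to 0.039, fold enrichment rank over -2.26 to 1.56 percentiles, the difference between Dam-Simba2 and Dam-Simba1 in log2 density over -0.31 to 0.49 and in log2 covered share over -0.31 to 0.62, and regions shared by all remaining lists over 56 to 136. With that pair of changes, the difference between the proteins in log2 density was -0.068. Regions in all 4 lists fell to 19 at q of 0.05, 2 at q of 0.001 and 18 with q of 0.05 and raised lambda together; genes with a peak in all 4 numbered 10 at q of 0.001. The thresholds make the lists shorter by construction, and a q limit also keeps lower fold enrichments where lambda is higher. The cause of the other changes was not tested. In the paired analysis with batch as the replicate block, the difference between the proteins stayed at 0.089 in log2 density and 0.15 in log2 covered share (exact permutation p = 1, with 0.5 the smallest it can give), and the block changed no call. Raised lambda, the comparison with the centromere side, and the alternatives for counts of regions and genes were chosen after seeing the data. Depth is given by tags alone, and peaks of low coverage are limited by it.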
